A study of Bombyx mori with 3 samples.

Results

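Carbonic anhydrases of the silkworm midgut were represented by 2 gene probes, sw12231 and sw15626, among 5126 of 23229 gene probes on the array that reached the brightness mark of the deposited files on at least 1 of 3 arrays. Both were gene probes whose description names carbonic anhydrase or carbonate dehydratase, and both carried the mark on all 3 arrays, so that no probe was in a class marked on fewer. A spot has the mark where the brighter of its dye channels reached an intensity of 400. The best protein match of sw12231 was an A-type carbonic anhydrase of the bacterium Vibrio fischeri ES114, and that of sw15626 was carbonic anhydrase 2 of the fish Tribolodon hakonensis. Neither best match is a silkworm protein, so both names are by similarity. The probes were chosen by their description and by their measured brightness, and sw12231 was singled out with its phoxim ratio known.

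Carbonic anhydrases are zinc enzymes that interconvert carbon dioxide and water with bicarbonate and a proton. They fall into classes of unrelated structure. Among them are the alpha class, which includes the enzymes of vertebrates, and the beta class, found in plants, microbes and many invertebrates. The class of an enzyme cannot be read from the organism of its best match, and it was not tested here. The midgut lumen of caterpillars is strongly alkaline, the V-ATPase proton pump in the apical membrane of goblet cells powers ion transport there, and bicarbonate is one of the ions that carry the luminal alkalinity.

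Larvae of Bombyx mori strain P50 were fed, from day 3 of the fifth instar, mulberry leaves dipped in phoxim at 4 µg/mL or, as the control, in water. Phoxim is an organophosphate insecticide, and both groups were of the same strain and were reared on mulberry leaves. Midguts were dissected after 24 h, 30 larvae were used per experiment, and each of the 3 arrays compared phoxim RNA with control RNA in 2 dyes. The submitters describe the 3 arrays as biological replicates, and the labels do not say whether midguts of an experiment were pooled.

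All ratios are phoxim over control as deposited, with values for replicates 1, 2 and 3 in that order. The header of replicate 2 gives Cy3 for phoxim and Cy5 for control, the reverse of replicates 1 and 3, whereas the labels put phoxim in Cy5 throughout. The headers were followed, and the carbonic anhydrase probes and the counts of called probes are also given with the sign of replicate 2 turned. With it turned, 0 of 3964 probes were called in limma (29 at an unadjusted p below 0.05), so none of the calls named here, those of the marker and bacterial lists included, was made in that fit. Log2 ratios of replicate 2 correlated across the 3964 probes marked on all arrays with r = 0.62 for replicate 1 and r = 0.26 for replicate 3, but across all 23229 gene probes, most of them dim, with r = -0.47 and -0.45. Over these 23229 probes, by the headers, the Cy5 channel was at 0 for 5726, 7746 and 10207 probes on replicates 1, 2 and 3. The Cy3 channel was at 0 for 45, 101 and 271. Probes are not independent replicates, and the correlations were not used to decide the direction. With the headers followed, the ratio's sign followed the dye in 46.5% of unmarked gene probes and in 14.9% of the 3964. As headers and labels conflict, these sources alone do not settle the direction of replicate 2. The arrays also hold positive control probes with 48 spots each. With the headers followed, median log2 ratios were -1.76, -1.97 and -2.19 for Y1 and 1.17, 0.87 and 0.53 for Y5. Every Y probe with all spots marked kept 1 sign across those arrays, while Hex had -11.70, 11.28 and -10.29. With replicate 2 turned, its Y medians take the sign opposite to the other arrays. These spots were not used to decide the direction. Of 100 probes whose names match trypsin, aminopeptidase N, peritrophin or V-ATPase, a list for midgut epithelium that by its wording also takes in chymotrypsins and protease inhibitors, 47 were marked on all 3 arrays.

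The Vibrio-matched probe sw12231 was brighter in phoxim than in control midguts on every array. Its phoxim intensities were 991, 1592 and 1626, and its control intensities were 508, 579 and 835. The lowest phoxim value lay above the highest control value, which was so for 8.4% of the 3964 probes. The deposited ratios were 2.29, 2.86 and 2.25, and the plain quotients of the intensities were 1.95, 2.75 and 1.95. The intensities were taken to precede the authors' normalization. The mean log2 ratio was 1.29 ± 0.19 (SD, n = 3), a 2.45-fold higher level with a 95% interval of 1.86 to 3.23. It passed the threshold of 0.05 in the fit over all 3964 probes (adjusted p = 0.028, limma). In that fit 0.505% of probes were called higher and 0.681% were called in either direction. Because the probe had been picked out with this call known, the p describes the fit and is no separate support. In whole tissue, a change in the number of cells that carry a transcript and a change in RNA per cell cannot be told apart.

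**Figure D1:**
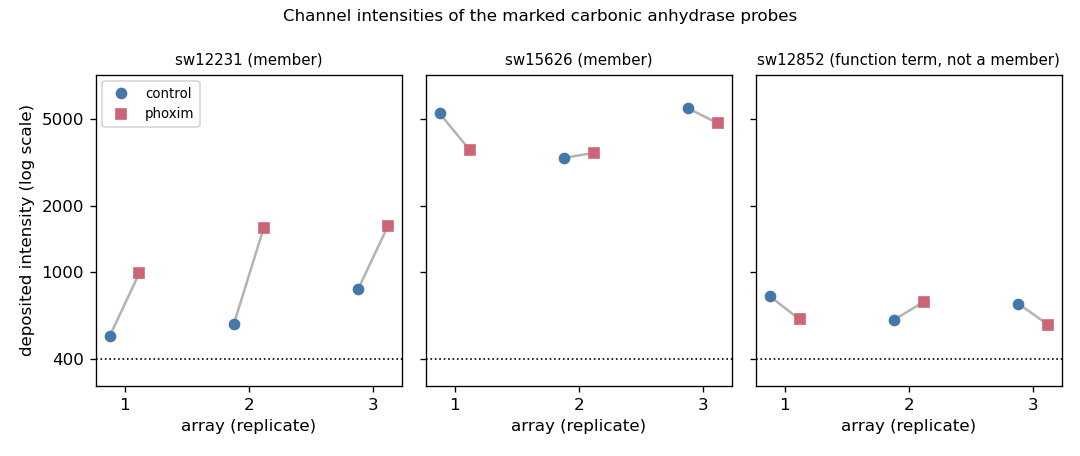
Deposited intensity, on a log axis, of the 3 marked probes annotated to carbonic anhydrase, with control as circles, phoxim as squares and a line joining the 2 channels of each array. The dotted line is the mark level of 400, and sw12231 shows phoxim above control on all 3 arrays.

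On the deposited scale the sw12231 ratio varied little between arrays, and the spread depended on the normalization. Its SD of 0.19 was under the median SD of 0.29 over the 3964 probes, and 28.2% of probes had an SD as low. From the median-centred intensities its log2 ratios were 1.40, 0.67 and 1.60, with an SD of 0.49, and after loess they were 0.90, 1.18 and 1.08, with an SD of 0.14. Its ratio was above 1 on all 3 arrays, as were those of 23% of probes. A deposited ratio of 2 or more on all 3 arrays, which sw12231 had, was found for 17 probes, or 0.429%. A log2 ratio at or above its own occurred in 3.3% of probes on replicate 1, in 0.631% on replicate 2 and in 1.87% on replicate 3.

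All 6 channel intensities of sw12231 were above the 95th percentile of the 382 negative control spots of their channel. These percentiles ranged from 86.95 to 347.85. The mark level lies above all of them, so the phoxim channels, the brighter ones on each array, passed by the choice of probe. Only the control channels could have failed. The probes sw15626 and sw12852 also had all 6 channels above these percentiles. The probe sw12231 lies in print block 35, where the other 83 marked probes had median log2 ratios of -0.07, -0.01 and 0.04. Of these 83, 3 reached the sw12231 ratio on replicate 1, 0 on replicate 2 and 1 on replicate 3. With block medians subtracted, its mean was 1.29 (adjusted p = 0.034, limma). The files list no cross-hybridising gene model for any of the 11 probes annotated to the enzyme, so this does not set sw12231 apart. For its gene model, Bmb010930, the files list no expressed sequence tag (EST) and no nucleotide record.

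The call depended on single arrays and on the processing, and the size less so. The mean log2 ratio was 1.34 without replicate 1 (adjusted p = 0.051, limma), 1.18 without replicate 2 (adjusted p = 0.41, limma) and 1.35 without replicate 3 (adjusted p = 0.01, limma). In the fit without replicate 3, 7.14% of probes were called higher. With the sign of replicate 2 turned it was 0.28, with an interval of -1.22 to 1.79 (adjusted p = 1, limma).

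The fish-matched probe sw15626 was the brighter spot and had no common direction. Its best match, carbonic anhydrase 2, is a cytosolic enzyme of the alpha class in vertebrates. Its phoxim intensities were 3628, 3511 and 4791, and its control intensities were 5319, 3329 and 5611. The groups overlapped, with phoxim below control on replicates 1 and 3 and slightly above it on replicate 2. The deposited ratios were 0.626, 1.09 and 1.02, so that on the deposited scale replicate 1 alone departed clearly from 1. The mean log2 ratio was -0.17 ± 0.44 (SD, n = 3, adjusted p = 0.69, limma), and the interval of the fold ran from 0.629 to 1.25. The turned sign of replicate 2 gave -0.26 (adjusted p = 1, limma), and replicate 1 carried the sign, since the mean was 0.08 without it. Its gene model, Bmb034139, is listed with 4 ESTs.

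The log2 ratio of sw12231 exceeded that of sw15626 by 1.87, 1.39 and 1.15. The mean difference was 1.47 ± 0.37 (SD, n = 3). It is given with no test, since sw12231 was picked out for its ratio. With the sign of replicate 2 turned, the difference on that array is negative.

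Another bright probe carries the same function term without the words in its description. For sw12852, matched to GA11301-PA of Drosophila pseudoobscura, the files give carbonate dehydratase activity and zinc ion binding, and the process carbon utilization. The process term of sw12231 and sw15626 is instead one-carbon compound metabolism, and sw12852 shares with sw15626 the pathway term nitrogen metabolism. Its phoxim intensities were 606, 729 and 573, and its control intensities were 775, 604 and 716. The groups overlapped, with phoxim below control on replicates 1 and 3 and above it on replicate 2. The deposited ratios of 1.00, 0.728 and 1.24 lay on the other side of 1 from the plain quotients of 0.782, 1.21 and 0.80, so the direction of sw12852 depended on the normalization. The mean log2 ratio was -0.05 ± 0.39 (SD, n = 3, adjusted p = 0.93, limma), the interval of the fold was 0.699 to 1.34, and the turned sign gave 0.26 (adjusted p = 1, limma). Its gene model is listed with 14 ESTs, the most of the 11 probes annotated to the enzyme.

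**Figure D2:**
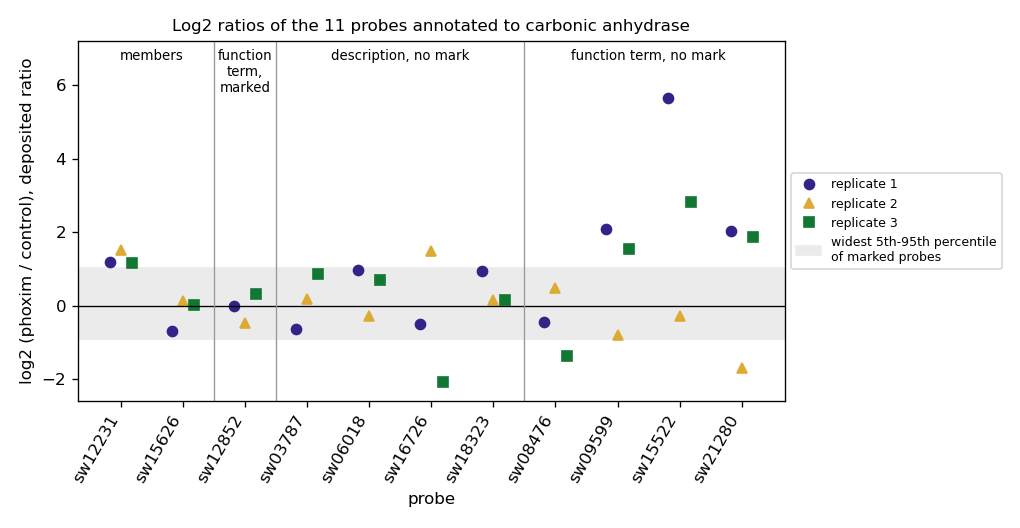
Log2 of the deposited phoxim over control ratio on replicates 1, 2 and 3 for the 11 probes annotated to carbonic anhydrase by description or function term. The grey band spans the lowest 5th and the highest 95th percentile of the 3 arrays over all 3964 marked probes, -0.91 to 1.02, and sw12231 lies above it on all arrays.

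Silkworm genes named outright as carbonic anhydrases were too dim to compare. Of 6 probes whose description names the enzyme, 4 had no mark on any array. The gene LOC692876, named erythrocyte carbonic anhydrase in Bombyx mori, has 2 probes, both unmarked. Its probe sw06018 had phoxim intensities of 191, 153 and 90 and control intensities of 143, 97 and 90, and came nearest to the mark level from below. The nearest from above was sw12852, whose brighter channel was 716 on replicate 3, and for the 2 carbonic anhydrases it was sw12231 at 991 on replicate 1. The probe sw18323 of the same gene had a highest intensity of 52 and a phoxim channel listed at 0 on 2 arrays. These files therefore give no fold for LOC692876.

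The other unmarked probes were equally dim. The probe sw03787, matched to carbonic anhydrase 15 of the dog, a membrane-anchored enzyme in mice, had a highest intensity of 174. The probe sw16726, matched to rabbit carbonic anhydrase 4, likewise a membrane-anchored enzyme of mammals, had one of 141. The 4 probes sw08476, sw09599, sw15522 and sw21280 carry the function term with best matches to Drosophila melanogaster or Anopheles gambiae proteins, and their intensities ranged from -3 to 59. Across the 8 unmarked probes, 11 of 24 phoxim and 4 of 24 control intensities were at or below 0. In 12 of these 24 pairs the deposited ratio was on the other side of 1 from the intensities, as it was in 46% of values over all unmarked gene probes and in 19% over the 3964 marked ones. Dimness was not the only case, since 4 of 9 values of the 3 marked carbonic anhydrase probes did so. These were the values of sw12852 and that of sw15626 on replicate 3.

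The probes whose 3 log2 ratios were most like those of sw12231 were sw13529, sw07625 and sw19184, by the root mean square difference over the 3 arrays. The probe sw13529, matched to a lipase, a fat-digesting enzyme, had log2 ratios of 1.12, 1.39 and 1.08, but its phoxim intensities of 59612, 59664 and 63318 were at or close to the highest on each array, so its likeness cannot be read. The probe sw07625, matched to the nuclear receptor E75 of a land crab, an ecdysone response gene in insects, had 1.00, 1.42 and 1.25, a difference of 0.13. The probe sw19184 of LOC732967, matched to a chymotrypsin-like digestive protease, had 1.27, 1.27 and 1.00, a difference of 0.18. This likeness rests on 3 arrays and is a description of size only.

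Other genes of acid-base transport and bicarbonate use did not move past the threshold. Of 112 probes on the array in the 5 name-based lists, 26 were marked on all arrays, and 0 were called in limma, with 2 at an unadjusted p below 0.05 and a background of 0.681% called and 15.2% at that unadjusted level. Their median log2 ratio was -0.07, against 0.03 over all 3964 probes. With the sign of replicate 2 turned, 0 were called and 0 had an unadjusted p below 0.05.

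V-ATPase subunits, the proton pump that energises the goblet cell membrane, made up 16 of the 26. Their median log2 ratios were -0.41, -0.24 and 0.32, so that replicate 3 went against the other arrays. The smallest p belonged to sw21938, subunit H (LOC733031), with log2 ratios of -0.98, -0.24 and -0.13 which average to -0.45 ± 0.46 (SD, n = 3) and did not pass (adjusted p = 0.36, limma).

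Of the bicarbonate and anion transporters, 1 of 27 probes was marked on all arrays. This was sw18026, matched to a sulfate transporter of Drosophila melanogaster, with log2 ratios of -0.97, -0.93 and -0.63. Phoxim was below control on all 3 arrays, and the mean log2 ratio of -0.84 ± 0.19 (SD, n = 3) did not pass (adjusted p = 0.088, limma). Without replicate 3 it was called lower, at -0.95 (adjusted p = 0.02, limma), together with the V-ATPase subunit C probe sw14354, at -1.35 (adjusted p = 0.029, limma). That fit called 470 of all 3964 probes, and 187, or 4.72%, were called lower.

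The remaining lists held few marked probes, and several of these match a list by name alone. Among 5 carboxylase probes, which use bicarbonate as a substrate, pyruvate carboxylase (sw01281) had the smallest p, at 0.47 ± 0.36 (SD, n = 3, adjusted p = 0.32, limma). Among 3 sodium and potassium transport probes it was sw09886, matched to a cotransporter of sodium, potassium and chloride, at 0.30 ± 0.22 (SD, n = 3, adjusted p = 0.43, limma). The other 2, matched to a splicing factor and a potassium channel tetramerisation domain protein, are not known transporters. The single cation/proton exchanger probe, sw03337, matches a regulator of sodium/proton exchange and had -0.24 ± 0.38 (SD, n = 3, adjusted p = 0.55, limma).

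**Figure D3:**
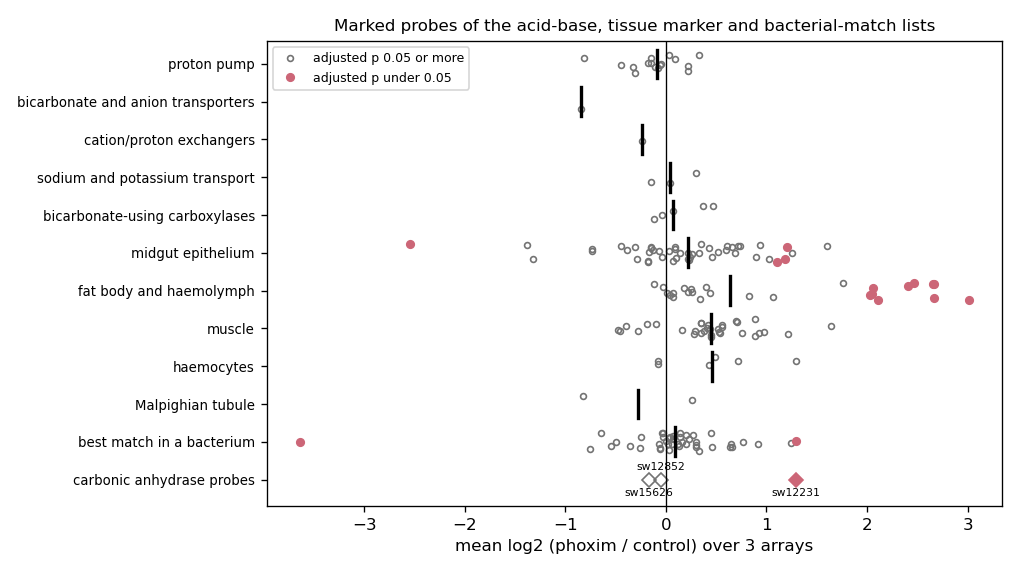
Mean log2 phoxim over control ratio of every probe marked on all 3 arrays, by list, with filled points for an adjusted p under 0.05 and a vertical bar at each list's median. The last line gives the 3 marked carbonic anhydrase probes, of which sw12231 at 1.29 is filled, and no acid-base list has a filled point.

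Markers of the midgut epithelium and of tissues that border it were read in the same RNA. These lists were drawn by name, and some probes match in words only, such as a Rab3 GTPase-activating protein in the fat body list, an integrin beta 4 binding protein in the haemocyte list and non-muscle myosins in the muscle list. Of the 47 marked midgut epithelium probes, 3 were called higher and 1 lower, beside 0.505% and 0.177% of all probes, with a median log2 ratio of 0.22 and a range of -2.55 to 1.60. Sums of channel intensity, taken to precede the authors' normalization, are given for each array. Over all 100 midgut epithelium probes they were 606621, 535168 and 692835 for phoxim and 457946, 644311 and 534310 for control. Of 26 marked fat body and haemolymph probes 10 were called higher, beside the same 0.505%, with a median of 0.64. The sums over all 54 probes were 231394, 163344 and 381816 for phoxim and 147018, 162225 and 161509 for control. Of 32 marked muscle probes 0 were called, with a median of 0.45. The sums over 94 probes were 181829, 142957 and 155293 for phoxim and 108179, 134646 and 112148 for control. Of 6 marked haemocyte probes 0 were called, with a median of 0.46. The sums over 49 probes were 10267, 12029 and 9806 for phoxim and 9844, 7085 and 10298 for control. The 2 marked Malpighian tubule probes, of 11, had a median of -0.28. The sums over the 11 were 9010, 10120 and 8956 for phoxim and 12668, 14183 and 11325 for control. No probe of the fat body, muscle or Malpighian tubule lists was at 0 on all arrays in either channel, and 1 haemocyte probe was. The part of these tissues in the sw12231 ratio was not tested.

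Because the best match of sw12231 is bacterial, all probes with a bacterial best match were listed, sw12231 included. Of 256 such probes, 44 were marked on all 3 arrays, with a median log2 ratio of 0.09. Among these 44, sw12231 was the 1 called higher and sw10189, matched to a transposase of Escherichia coli, the 1 called lower, beside 0.505% and 0.177% of all probes. The call of sw12231 was known beforehand, so the count of probes called higher is no separate support. The summed channel intensities of the 256 probes were 190741, 170296 and 175141 for phoxim and 144187, 182001 and 146583 for control. A best match in a bacterium does not say whether the transcript is of the silkworm or of a microbe in the gut, and this was not tested.

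**Figure D4:**
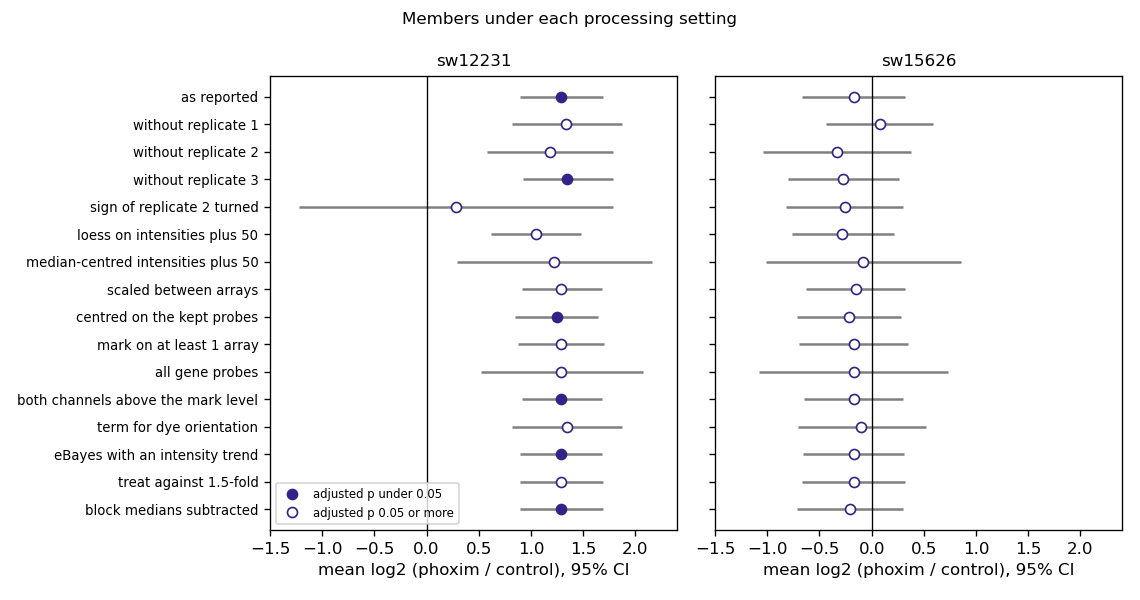
Mean log2 phoxim over control ratio with 95% interval of sw12231 and sw15626 in the reported setting and in 15 alternatives, with filled points for an adjusted p under 0.05. For sw12231 all means are above 0 and 5 of 15 alternatives keep the call, and for sw15626 all intervals include 0.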

How the data were processed

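The deposited array files give, per the file headers, a Cy5 and a Cy3 intensity and a ratio of phoxim over control for each of 24288 spots. The files hold no background columns, so the intensities were taken as background-subtracted by the authors. Their quotient differs from the deposited ratio. What the scanner and the normalization were is not given in the sources used here. A deposited log2 value table equals log2 of the ratio to within 4.9e-09, with column medians of 0.040, -0.021 and 0.016. Because separate backgrounds were not in the files, the deposited ratio was used unchanged. Control spots (677 positive, 382 negative) were left out. Log2 ratios of the 3964 gene probes marked on all 3 arrays entered an intercept-only model in limma 3.58.1, R 4.3.3 (eBayes, two-sided, Benjamini-Hochberg, threshold 0.05). The procedure was checked on simulated data with independent errors, which does not cover errors shared through a dye or an array. The number of arrays limits precision. Probes and lists were chosen with earlier results of these data known. Every probe of the rule was named, with the 3 most similar to sw12231 and the smallest p of each acid-base list; sw10189, sw14354 and sw12852 were named after their values were seen. Lists were patterns on symbols and descriptions. The LOC692876 identifier matched the reference table of assembly ASM3026992v2, used for names only.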

Additional observations from a re-analysis of the deposited data

How the results depend on the processing

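Of 15 alternatives, sw12231 stayed above 0 in all and past the threshold in 5: without replicate 3, centred on the 3964 probes, with both channels above 400, with an intensity trend and, chosen after seeing the data, with block medians subtracted. It did not pass in the other 10. Its mean log2 ratio was 1.18 to 1.35 with 1 replicate left out, 0.28 with the sign of replicate 2 turned, 1.05 with loess on intensities plus 50, 1.22 with median-centred intensities plus 50, 1.35 with a term for dye orientation, and 1.29 with scaling between arrays, the mark on at least 1 array, all gene probes, or treat against 1.5-fold. Adjusted p over these alternatives was 0.01 to 1 (limma). The count of the 2 carbonic anhydrases called, 1 as reported, was 0 in the same 10, and 0 to 1 with 1 replicate left out. Called probes over the whole array, 27 as reported, were 4 (without replicate 2) to 470 (without replicate 3) with 1 replicate left out, 0 with the sign turned (29 at an unadjusted p below 0.05), 1 scaled between arrays, 17 with the mark on at least 1 array, 0 with all gene probes (450 unadjusted), 16 with both channels above 400, 0 with the dye term (348 unadjusted) and 9 with treat, all in limma. Called acid-base probes were 0 to 2 with 1 replicate left out and otherwise 0. Neither sw15626 nor sw12852 passed in any alternative. The cause of these changes was not tested. The settings differ, among other things, in the arrays left and in the number of probes adjusted for. The fit of within-array ratios is already paired by array, and no further pairing was possible because the series has 1 group of ratios. Intensity limits the 8 unmarked probes, whose ratios rest on values near background.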

Other observations

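The sign of the deposited ratio followed the dye on 6 of the 8 unmarked carbonic anhydrase probes, that is, it was on 1 side of 1 on replicates 1 and 3 and on the other side on replicate 2. Among them were all 4 of those known by function term alone, and sw15522 had ratios of 50.04, 0.821 and 7.03 although its phoxim channel was listed at 0 on replicates 1 and 3. The same pattern held for 46.5% of all unmarked gene probes and for 14.9% of the 3964 marked ones. Of the 3 marked carbonic anhydrase probes, sw12852 alone did so, at log2 ratios of 0.00, -0.46 and 0.31.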
